A study of Mus musculus with 10 samples.

Results

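The data describe 10 receptor chains through which cytokines reach STAT3 and its relatives, read in 10 RNA libraries from mouse skin. The chains were taken by gene symbol as members of the IL-6, IL-4/IL-13 and IL-10/IL-20 receptor families, and all 10 were found once each among the 23282 entries of the tables. The STAT3cKO group holds 5 libraries from C57BL/6 mice with STAT3 ablated in keratinocytes, and the WT group holds 5 libraries from wild-type C57BL/6 mice. All mice were 5 months old and untreated as far as the labels say. The labels name neither the promoter that drove the ablation, nor the deleted exons, nor any allele carried by the WT mice. They do not say whether every library came from its own mouse, and p-values here therefore reflect library-to-library spread, part of which may be technical.

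Cytokine receptors of these families have no enzyme of their own. A ligand brings signalling chains together, either unlike ones or, for IL-6, a pair of gp130 chains, the Janus kinases bound to their tails phosphorylate each other and the receptor, and STAT proteins dock there and are phosphorylated in turn. The chains sort by role. Il6st encodes gp130, the shared signalling chain of the IL-6 family, which pairs with Osmr for oncostatin M, with Lifr for leukaemia inhibitory factor, and with the non-signalling ligand-binding chain Il6ra for IL-6. Il4ra binds IL-4 and signals mainly through STAT6, either with the common gamma chain Il2rg on blood cells or with Il13ra1 on keratinocytes and fibroblasts. Il10rb is the widely expressed partner chain of the IL-10 and IL-22 receptors, whereas Il22ra1, Il20ra and Il20rb sit mainly on epithelial cells and let keratinocytes respond to IL-22, IL-19, IL-20 and IL-24, largely through STAT3.

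Values are those of the deposited tables, which behave approximately as log2 of scaled reads per gene plus 1. Differences are STAT3cKO minus WT on that scale. The kit reads 1 fragment at the 3′ end of a transcript, so levels are per transcript end and were not divided by gene length. The estimated depth was 7520000 to 18300000 reads in STAT3cKO libraries and 7190000 to 16600000 reads in WT libraries. A value under that of 0.5 of a read is called no read. STAT3cKO 2 stood apart, with no read for 2617 of the 11536 tested genes against 83 to 1273 in the other 9 libraries. WT 3 had the next highest number, 1273. STAT3cKO 2 also had Ddx3y of the Y chromosome at 10.62 (at most 1.26 in the others) and Xist at 0.06 (8.65 to 11.01 in the others). By these genes STAT3cKO 2 reads as male and the other 9 libraries as female, so sex is not balanced between the groups. Leaving out STAT3cKO 2 removes the only male library and the one with most unread genes at once. Sex and library quality therefore cannot be told apart in results without it. Skin markers were present in every library, with Krt5 at 11.85 to 14.4, Krt14 at 10.82 to 14.16 and Col1a1 at 12.38 to 15.16. Stat3 itself had 10.25, 9.98, 10.81, 9.49 and 10.13 in STAT3cKO 1 to 5, and 9.70, 9.08, 10.27, 9.27 and 10.29 in WT 1 to 5. Its change was 0.41 (SE 0.36, adjusted p = 0.70 by limma), a level that checks nothing about the ablation, because a 3′ read need not cross the deleted exons and other cells of the skin carry the transcript.

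None of the receptor chains changed by the test over all genes. Il4ra, the IL-4 receptor chain, was nevertheless lower in every STAT3cKO library than in any WT library, and the other 9 chains overlapped between the groups. Of the 10 chains 9 were tested, and 0 of the 9 had a limma adjusted p under 0.05, where 0.988% of all tested genes were called (0.529% higher and 0.459% lower in STAT3cKO). Unadjusted p-values under 0.05 numbered 0 of 9, against 1257 of 11536 genes (10.9%). The change was above 0 for 6 of the 9 chains and for 43.8% of all tested genes, with a median of 0.47 for the chains and −0.16 for all genes. A gene was tested if 5 or more libraries reached a value of 5. Il20ra, the tenth chain, reached a value of 5 in 2 STAT3cKO and 2 WT libraries and was too low to test. The other 9 passed that filter through both groups, each with at least 3 libraries of either genotype at or above 5.

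**Figure D1:**
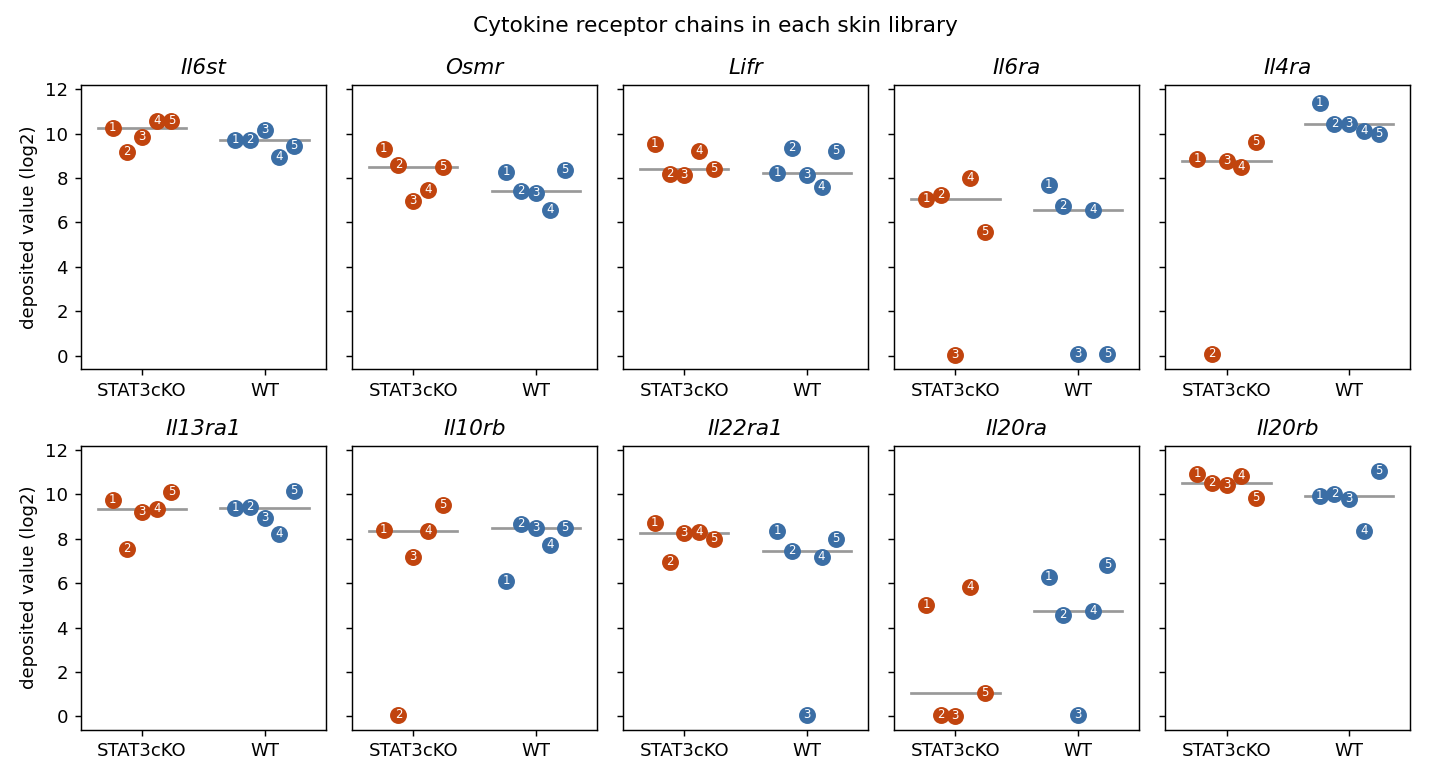
Deposited value (log2 axis) of each receptor chain in each library, with STAT3cKO libraries left of WT libraries, library numbers inside the points and a grey line at the group median. Il4ra is the chain whose groups do not overlap, at 0.06 to 9.65 in STAT3cKO and 9.97 to 11.38 in WT, and points near 0 are libraries without a read of that gene.

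Il4ra lies at chr7:125552120-125579474 on the plus strand of mm10, and its exons overlap those of Gm44876 on the minus strand, so reads of both may be mixed. It had values of 8.87, 0.06, 8.76, 8.49 and 9.65 in STAT3cKO 1 to 5, and of 11.38, 10.44, 10.46, 10.12 and 9.97 in WT 1 to 5. The lowest WT library thus lay above the highest STAT3cKO library, and STAT3cKO 2 lay far below the rest. Non-overlapping groups with STAT3cKO lower were found for 1.72% of the tested genes, and with STAT3cKO higher for 1.71% (3.42% in either direction). The estimated number of reads behind these values was 383 to 1406 in STAT3cKO 1, 3, 4 and 5 and 668 to 3977 in WT, so counting error was small beside the spread between libraries.

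The change of Il4ra was −3.31 (95% interval −7.19 to 0.57, SE 1.71, adjusted p = 0.534 by limma). STAT3cKO 2 decided the size of this value. Without it the change was −1.53, a level 2.89-fold lower in STAT3cKO (SE 0.37, 95% interval −2.32 to −0.74), and the adjusted p by limma was 0.061, where it ranged from 0.061 to 0.815 over all alternatives. Among the 4 deeper libraries alone, STAT3cKO 4 and 5 and WT 1 and 2, the change was −1.84 (SE 0.51, adjusted p = 0.14 by limma). A count of 0 in STAT3cKO 2 allows up to 3 reads, a value of 2.38. Of 1428 tested genes whose median over the other 9 libraries lay within 0.5 of that of Il4ra, 19 (1.33%) had no read in STAT3cKO 2 either.

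Il13ra1 (chrX:36112110-36171259, plus strand), which joins Il4ra in the type II receptor for IL-4 and IL-13, had values of 9.76, 7.55, 9.23, 9.33 and 10.09 in STAT3cKO 1 to 5, and of 9.38, 9.44, 8.94, 8.21 and 10.14 in WT 1 to 5. The groups overlapped almost wholly, with only STAT3cKO 2 outside the WT range. The mean was 9.19 ± 0.98 in STAT3cKO and 9.22 ± 0.71 in WT (SD, n = 5 each), a change of −0.03 (95% interval −1.07 to 1.01, SE 0.50, adjusted p = 0.988 by limma). The interval leaves room for about 2-fold in either direction. The sign turned under several alternatives, among them the scaling to equal library sums (0.08) and leaving out STAT3cKO 2 (0.38).

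The balance of the 2 chains within a library largely restates the values of Il4ra, since the change of Il13ra1 was only −0.03. It is not a separate result, and the share of gene pairs that differ in this way was not taken. Il4ra minus Il13ra1 was −0.89, −7.49, −0.47, −0.84 and −0.44 in STAT3cKO 1 to 5, and 1.99, 1.0, 1.52, 1.91 and −0.16 in WT 1 to 5. All 5 STAT3cKO libraries had fewer reads of Il4ra than of Il13ra1, whereas 4 of the 5 WT libraries had more. This difference is given without a test, since the pair was chosen with earlier results of these data known. Il2rg, the partner of Il4ra in the type I receptor, had a change of −1.07 (SE 1.66, adjusted p = 0.834 by limma), and Stat6, the STAT that IL-4 mainly activates, one of −1.35 (SE 0.87, adjusted p = 0.587 by limma). STAT3cKO 2 set both values, with no read of Il2rg (0.06) and 3.44 for Stat6. Without it the change was 0.31 for Il2rg (SE 1.17) and −0.33 for Stat6 (SE 0.42).

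**Figure D2:**
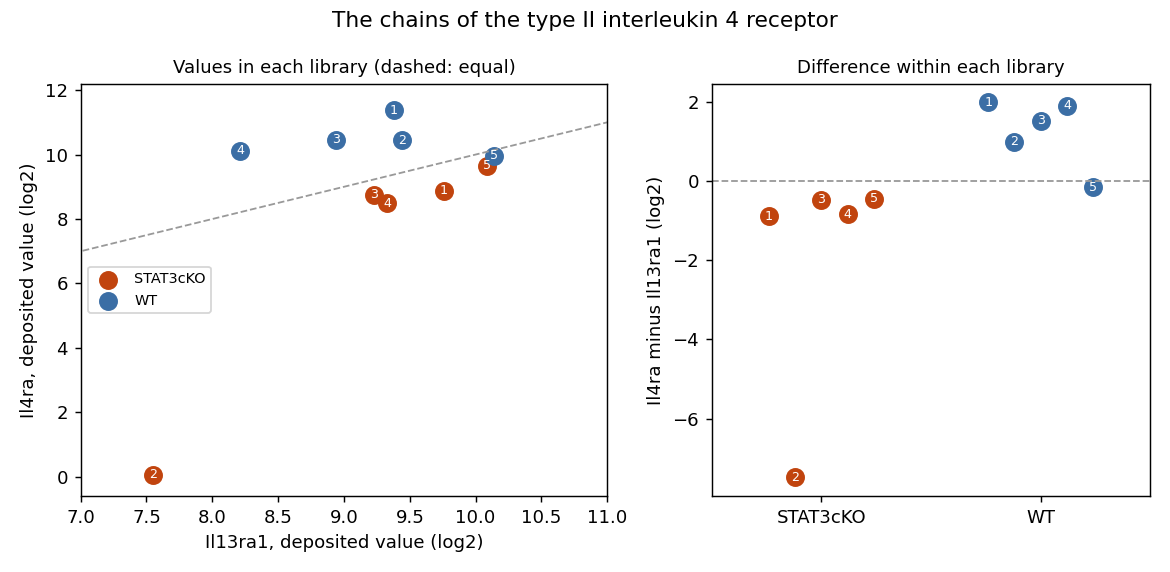
Left, the deposited value of Il4ra against that of Il13ra1 (both log2) in each library, with a dashed line of equal values. Right, Il4ra minus Il13ra1 in each library, STAT3cKO left of WT, where STAT3cKO lies between −7.49 and −0.44 and WT between −0.16 and 1.99.

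The chains were also ordered by their median value, and Il4ra and Osmr differed most in rank between the genotypes, by 3 places each. In STAT3cKO skin Il20rb was highest (10.54), followed by Il6st (10.26), Il13ra1 (9.33), Il4ra (8.76), Osmr (8.50), Lifr (8.41), Il10rb (8.34), Il22ra1 (8.27), Il6ra (7.06) and Il20ra (1.06). In WT skin Il4ra was highest (10.44), followed by Il20rb (9.94), Il6st (9.70), Il13ra1 (9.38), Il10rb (8.49), Lifr (8.21), Il22ra1 (7.46), Osmr (7.40), Il6ra (6.58) and Il20ra (4.77). The library values of every pair of neighbours overlapped in both orders.

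Adipocyte, macrophage and skeletal muscle markers mostly had a negative change, as Il4ra did, while fibroblast and endothelial markers were split. In bulk skin, fewer cells of a type and less RNA per cell cannot be told apart. Of 10 adipocyte markers 10 had a negative change and 1 was called lower, and the summed level of the list was 15.32 to 17.81 in STAT3cKO and 16.78 to 19.26 in WT. Of 9 macrophage and monocyte markers, a class that carries Il4ra, 9 had a negative change and 0 were called, with a summed level of 11.97 to 14.20 in STAT3cKO and 13.24 to 14.55 in WT. The T and NK cell list, of which 2 of 9 were tested, had a summed level of 1.44 to 8.14 in STAT3cKO and 6.66 to 9.77 in WT, the lowest being STAT3cKO 2, and each of its 7 markers present in the files had no read in at least 1 library. Of 9 skeletal muscle markers 8 had a negative change and 0 were called, with a median of −1.89 and a summed level of 12.52 to 17.36 in STAT3cKO and 14.23 to 18.17 in WT. Of 7 tested endothelial markers 4 had a positive change and 0 were called, with a median of 0.17 and a summed level of 10.33 to 12.16 in STAT3cKO and 10.08 to 11.39 in WT. Of 8 fibroblast markers 4 had a negative change and 1 was called lower, with a summed level of 14.67 to 17.18 in STAT3cKO and 16.03 to 16.71 in WT. STAT3cKO 2, the library without a read of Il4ra, was not low in every list. It was the highest of its group for the adipocyte (17.81) and endothelial (12.16) lists. Its summed level was 14.13 for macrophages and monocytes, 16.58 for skeletal muscle and 15.52 for fibroblasts. No marker of these lists was without a read in all libraries of a group. The part of these cell types in the level of Il4ra was not tested.

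The promoters of the pair are shown because Il4ra is the chain whose groups separated and Il13ra1 its partner that did not, and that of Il20ra because it holds the single STAT-type motif found. The windows come from the RefSeq promoter table on GRCm38.p6, the build called mm10, plus strand, and are cut where the annotated gene begins. Capitals mark a motif.
Il4ra, chr7:125552021-125552119: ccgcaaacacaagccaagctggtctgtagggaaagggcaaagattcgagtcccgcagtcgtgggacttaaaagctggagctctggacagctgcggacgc
Il13ra1, chrX:36111858-36112107: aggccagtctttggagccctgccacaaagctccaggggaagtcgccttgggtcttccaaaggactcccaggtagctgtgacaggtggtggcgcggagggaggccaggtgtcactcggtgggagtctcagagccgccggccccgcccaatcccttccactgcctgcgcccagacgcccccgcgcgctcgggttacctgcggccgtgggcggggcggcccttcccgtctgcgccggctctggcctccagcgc
Il20ra, chr10:19712337-19712569: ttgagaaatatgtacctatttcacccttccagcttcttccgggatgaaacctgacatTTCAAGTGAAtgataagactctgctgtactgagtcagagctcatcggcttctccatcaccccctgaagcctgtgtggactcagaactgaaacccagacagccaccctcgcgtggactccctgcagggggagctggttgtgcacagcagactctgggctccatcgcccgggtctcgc

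The 250 bases before the RefSeq start were searched in 9 of the 10 chains, with 10 windows, since Lifr has 2 and Il10rb has none. Both motifs read the same on either strand. The general STAT form TTCNNNGAA was in 0 of the 10 windows and in 7.02% of all 32851 promoter windows of that length. The longer form TTCNNNNGAA, which STAT6 in particular is known to bind, was in 1 of the 10 windows, that of Il20ra, beginning 193 bases before its start, and in 5.85% of all windows. No match says only that these letters are absent from this window.

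The IL-6 family chains showed small differences that did not pass the test. Il6st (chr13:112464070-112510086, plus strand) had values of 10.26, 9.16, 9.84, 10.59 and 10.59 in STAT3cKO 1 to 5, and of 9.74, 9.70, 10.19, 8.97 and 9.47 in WT 1 to 5. Of the 5 STAT3cKO libraries 3 lay above all WT libraries, and STAT3cKO 2 lay below 4 of them. The mean was 10.09 ± 0.60 in STAT3cKO and 9.61 ± 0.45 in WT (SD, n = 5 each), a change of 0.47 (95% interval −0.30 to 1.25, SE 0.37, adjusted p = 0.66 by limma). Without STAT3cKO 2 and WT 3 it was 0.85 (95% interval 0.13 to 1.57, adjusted p = 0.343 by limma, the lowest over its alternatives), and among the 6 shallower libraries it was 0.21 (adjusted p = 0.951 by limma, the highest).

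Osmr (chr15:6813577-6874969, minus strand), the oncostatin M chain through which keratinocytes are activated in inflamed skin, had values of 9.29, 8.57, 6.97, 7.48 and 8.50 in STAT3cKO 1 to 5, and of 8.27, 7.40, 7.32, 6.56 and 8.36 in WT 1 to 5. STAT3cKO 1, 2 and 5 lay above all WT libraries, but STAT3cKO 3 lay below 4 of them. The mean was 8.16 ± 0.93 in STAT3cKO and 7.58 ± 0.75 in WT (SD, n = 5 each), a change of 0.58 (95% interval −0.91 to 2.07, SE 0.71, adjusted p = 0.785 by limma). Lifr (chr15:7090614-7197489, plus strand) had 9.53, 8.17, 8.13, 9.20 and 8.41 in STAT3cKO 1 to 5, and 8.21, 9.36, 8.15, 7.58 and 9.22 in WT 1 to 5. The groups overlapped widely, with STAT3cKO 1 alone above all WT libraries and a change of 0.19 (95% interval −0.89 to 1.26, SE 0.51, adjusted p = 0.915 by limma).

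Il6ra (chr3:89864059-89913196, minus strand), the ligand-binding chain for IL-6, was read in 7 of the 10 libraries. It had 7.06, 7.23, 0.01, 7.99 and 5.59 in STAT3cKO 1 to 5, and 7.71, 6.74, 0.06, 6.58 and 0.08 in WT 1 to 5. The 3 lowest values, in STAT3cKO 3, WT 3 and WT 5, were libraries without a read, and in those libraries 19.7%, 22.1% and 16.8% of tested genes of like level had none. Where the gene was read, the estimate was 80 to 342 reads. Its exons overlap those of Gm42809 on the plus strand, and whether counting used strand is not stated. Its change of 1.34 had a 95% interval of −2.98 to 5.67 (SE 2.06, adjusted p = 0.831 by limma), which leaves room for a difference of several fold in either direction, and its sign turned without STAT3cKO 2 and WT 3 (−0.11). It was 0.30 without WT 3, 0.31 without WT 5 and 2.74 without STAT3cKO 3.

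Within the IL-6 family the balance of the partner chains overlapped between the genotypes. Osmr minus Il6st was −3.11 to −0.59 in STAT3cKO and −2.86 to −1.12 in WT, with means of −1.93 ± 1.12 and −2.03 ± 0.72 in STAT3cKO and WT (SD, n = 5 each). Lifr minus Il6st was −2.18 to −0.73 in STAT3cKO and −2.03 to −0.26 in WT, with means of −1.40 ± 0.57 and −1.11 ± 0.78. In each of the 10 libraries Il6st therefore had more reads than either partner.

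In the IL-10/IL-20 family Il20rb (chr9:100457719-100486788, minus strand), the chain shared by the receptors for IL-19, IL-20 and IL-24, was the most abundant. It had 10.94, 10.54, 10.44, 10.83 and 9.82 in STAT3cKO 1 to 5, and 9.94, 10, 9.79, 8.35 and 11.08 in WT 1 to 5. STAT3cKO 1 to 4 lay above 4 of the 5 WT libraries, while WT 5 was the highest of all 10. The mean was 10.51 ± 0.44 in STAT3cKO and 9.83 ± 0.98 in WT (SD, n = 5 each), a change of 0.68 (95% interval −0.21 to 1.57, SE 0.42, adjusted p = 0.57 by limma). Without WT 4 the change was 0.31 and without WT 5 it was 0.99, so that single WT libraries moved it in both directions.

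Il22ra1 (chr4:135728172-135752140, plus strand), the chain that gives keratinocytes their response to IL-22, had 8.70, 6.96, 8.27, 8.33 and 7.98 in STAT3cKO 1 to 5, and 8.35, 7.46, 0.06, 7.17 and 8.01 in WT 1 to 5. Apart from WT 3, which had no read, the groups overlapped. Its change of 1.84 (95% interval −1.10 to 4.78, SE 1.40, adjusted p = 0.65 by limma) compares with 0.30 (95% interval −1.06 to 1.66) without WT 3. In that library 5.95% of tested genes of like level had no read.

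Il10rb (chr16:91406164-91425834, plus strand) had 8.39, 0.06, 7.19, 8.34 and 9.53 in STAT3cKO 1 to 5, and 6.11, 8.67, 8.49, 7.73 and 8.49 in WT 1 to 5. STAT3cKO 2 had no read, as did 14.1% of tested genes of like level there, and the remaining STAT3cKO libraries overlapped the WT range. The change was −1.19 (95% interval −4.28 to 1.89, SE 1.46, adjusted p = 0.787 by limma), and 0.47 (95% interval −0.91 to 1.84) without STAT3cKO 2. Exons of Il10rb overlap those of Gm21970, annotated on the same strand, so reads of both cannot be told apart.

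Il20ra (chr10:19712570-19760053, plus strand), the partner of Il20rb in the type I IL-20 receptor, had 5.04, 0.06, 0.01, 5.82 and 1.06 in STAT3cKO 1 to 5, and 6.30, 4.57, 0.06, 4.77 and 6.83 in WT 1 to 5. It was read in 3 STAT3cKO and 4 WT libraries, with an estimated 2 to 117 reads where present, and was not tested. STAT3cKO 2, STAT3cKO 3 and WT 3 had none, as had 44.7%, 19.2% and 27.7% of tested genes of like level in those libraries. Il20ra minus Il20rb lay at −8.76 to −5.02 in the 3 STAT3cKO libraries with reads of both and at −5.43 to −3.58 in the 4 WT libraries. Those ranges overlapped, and both hold a large excess of Il20rb reads.

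Il22ra1 can also pair with Il20rb, in the type II IL-20 receptor. Il22ra1 minus Il20rb was −3.58 to −1.84 in STAT3cKO and −3.07 to −1.17 in the 4 WT libraries with reads of both. Il22ra1 minus Il10rb, the pair of the IL-22 receptor, was −1.55 to 1.08 in 4 STAT3cKO and −1.21 to 2.24 in 4 WT libraries. Both ranges overlapped.

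**Figure D3:**
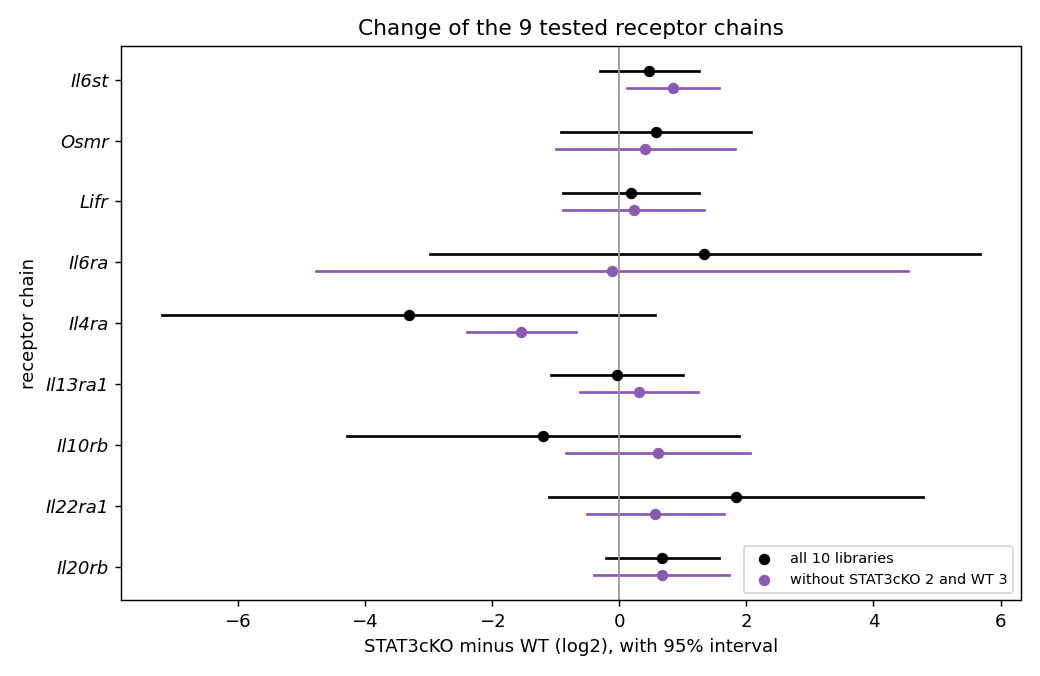
STAT3cKO minus WT (log2, x axis) for the 9 tested receptor chains, with points for the limma estimate and lines for its 95% interval, in all 10 libraries (black) and without STAT3cKO 2 and WT 3 (purple). The black intervals all hold 0, and the purple ones of Il4ra (−2.40 to −0.68) and Il6st (0.13 to 1.57) do not, although neither passed the adjusted test.

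Of the 100 values of these chains 9 were without a read, and 6 of the 9 were in STAT3cKO 2 or WT 3. Among WT libraries, WT 4 was the lowest for all 5 chains read in every library, Il6st, Osmr, Lifr, Il13ra1 and Il20rb. The share of all tested genes lowest in WT 4 was not taken, so the count is not read as a trait of the chains. WT 4 also had the highest summed level of growing hair follicle markers, 18.40, against 8.6 to 11.79 in the other WT libraries. Among STAT3cKO libraries that level was highest in STAT3cKO 3, at 18.35, which was the lowest of its group for Osmr and Lifr but not for the other 3 chains. STAT3cKO 1 (15.59) and STAT3cKO 5 (14.93) also had higher follicle levels than STAT3cKO 2 (7.94) and STAT3cKO 4 (8.92). STAT3cKO 1 was the highest of its group for 3 of the 5 chains, and STAT3cKO 5 for 2. The part of the hair cycle in these levels was not tested.

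The epidermal markers all had a positive change and none passed the test, as for the epithelial chains Il20rb and Il22ra1. The change of Il22ra1 fell from 1.84 to 0.30 without WT 3. Il20ra, also an epithelial chain, was not tested and had the lower median in STAT3cKO (1.06, against 4.77 in WT). All 7 suprabasal keratinocyte markers present in the files had a positive change and 0 were called, with a median change of 1.21 and a summed level of 16.90 to 17.79 in STAT3cKO and 15.05 to 17.07 in WT. Of 7 basal markers 7 had a positive change and 0 were called, with a median of 0.32 and a summed level of 14.25 to 15.75 in STAT3cKO and 13.09 to 14.91 in WT. No marker of either list was without a read in any library. Their part in the levels of Il20rb, Il22ra1 and Il20ra was not tested.

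Genes most like each chain were sought by the root mean square difference of mean-centred values over the 10 libraries, among tested genes averaging 8 or more and leaving out predicted genes. For Il6st the nearest were Ecm1 (0.19) and Bmp1 (0.23), where the median over all candidates was 0.86. For Il20rb they were Lce1a2 and Sphk2 (0.38 each, median 1.04), for Il13ra1 Itga6 (0.40) and Lrig1 (0.42, median 1.03), for Lifr Rhbdf1 (0.34) and Fbxo22 (0.36, median 0.94), and for Osmr Cyp27a1 (0.46) and Sptssa (0.49, median 1.07). For Il4ra they were Isoc1 (0.47) and Mut (0.59, median 3.11), both of which also had no read in STAT3cKO 2. The likeness of Map2k3 (0.75) and Ube2a (0.76) to Il10rb rests on the same library, where they had 1.29 and 1.95, and that of D17H6S56E-5 and Apbb2 (0.60 each) to Il22ra1 on WT 3, where they had 1.91 and 2.36. For Il6ra the nearest genes, Slc16a1 (2.24) and Man1a2 (2.32), were the least alike of any chain, against a median candidate at 3.31.

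The rest of the pathway was followed in 7 lists of 71 genes, all of which are in the tables. Of these 36 were tested and 0 were called, against 0.988% of all tested genes, and 6 (16.7%) had an unadjusted p under 0.05, against 10.9% of all tested genes. The median change was −0.05, beside −0.16 over all genes. Most ligands were read in few libraries or none. Of 9 ligands of gp130 receptors 2 were tested, and Lif and Il27 had no read in any library, while Il6 and Osm were read in 1 STAT3cKO and 0 WT libraries each. The change was 1.23 for Clcf1, a ligand of the ciliary neurotrophic factor receptor (adjusted p = 0.856 by limma), and −2.66 for Ebi3, a subunit of IL-27 (adjusted p = 0.658 by limma). Of 7 ligands of the IL-10/IL-20 group 0 were tested, and Il22 and Il24 had no read, while Il20 was read in 3 STAT3cKO and 0 WT libraries at up to 6.90, Il19 in 1 STAT3cKO and 3 WT libraries at up to 8.21, and Il10 in 0 STAT3cKO and 2 WT libraries at up to 6.56. Of 7 ligands of the IL-4/IL-13 group 0 were tested, and Il13 and Il31 had no read, while Il4 was read in 0 STAT3cKO and 2 WT libraries at up to 3.53, and Tslp in 3 STAT3cKO libraries at up to 6.19 and 2 WT libraries at up to 8.83.

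Of 12 other tested receptor chains 0 were called, 4 had a positive change and the median was −0.55. An unadjusted p under 0.05 was found for 3 of them, Ifngr1, Il22ra2 and Il11ra1. The change of Il11ra1 was −0.58 (95% interval −1.12 to −0.05, SE 0.26, adjusted p = 0.413 by limma). Ifngr1, the ligand-binding chain of the interferon gamma receptor, had 10.36, 11.46, 11.11, 11.41 and 11.47 in STAT3cKO 1 to 5, and 10.18, 10.28, 10.82, 9.12 and 9.80 in WT 1 to 5. STAT3cKO 2 to 5 lay above all WT libraries, with a change of 1.12 (95% interval 0.38 to 1.85, SE 0.35, adjusted p = 0.166 by limma). Il22ra2, a soluble decoy that binds IL-22, had 6.13, 9.37, 6.71, 7.40 and 7.21 in STAT3cKO 1 to 5, and 6.28, 5.87, 0.06, 4.05 and 0.08 in WT 1 to 5. It had a read in all 5 STAT3cKO and in 3 WT libraries, and its change of 4.10 (SE 1.67, adjusted p = 0.367 by limma) includes the 2 WT libraries without one. A value of 5 was reached in 5 STAT3cKO and 2 WT libraries, so Il22ra2 met the filter through STAT3cKO, the group where it was higher. It is among the 6 pathway list genes with an unadjusted p under 0.05. The change was 3.30 when WT 3 alone was left out, and the same when WT 5 alone was left out. With a pseudocount of 16 it was 2.37. In the deeper libraries it was 1.23 (95% interval −1.06 to 3.52, adjusted p = 0.672 by limma), and in the shallower ones 6.01.

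Of 4 Janus kinases 0 were called, with a median of −0.93. The change was −1.33 for Tyk2 (adjusted p = 0.722 by limma) and −0.80 for Jak2 (adjusted p = 0.838 by limma), each with 1.29, the value of about 1 read, in STAT3cKO 2, and both signs turned without that library. Of 5 tested STAT factors 0 were called, with a median of −0.92. Stat5b, which IL-2 family cytokines and growth hormone activate, had 8.68, 9.46, 8.02, 8.72 and 9.57 in STAT3cKO 1 to 5, and 10.11, 9.73, 10.58, 8.87 and 10.28 in WT 1 to 5. Of the STAT3cKO libraries 3 lay below all WT libraries (change −1.02, SE 0.42, adjusted p = 0.377 by limma). Stat2, which acts in the type I interferon response, was 8.20 to 8.84 in STAT3cKO and 0.06 to 7.93 in WT (change 2.62, SE 1.33, adjusted p = 0.50 by limma). Its groups did not overlap, as was so with STAT3cKO higher for 1.71% of all tested genes. Without WT 3, where Stat2 had no read, the change was 1.16.

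Of 13 tested feedback inhibitors and phosphatases 0 were called, 9 had a positive change and the median was 0.11. Socs3, the inhibitor that binds gp130 and is itself induced by STAT3, had 8.96, 10.09, 8.56, 9.38 and 10.80 in STAT3cKO 1 to 5, and 8.64, 7.54, 8.61, 6.95 and 1.36 in WT 1 to 5. STAT3cKO 1, 2, 4 and 5 lay above all WT libraries, and WT 5 had about 1 read. The change was 2.94 (95% interval 0.41 to 5.47, SE 1.18, adjusted p = 0.375 by limma), and without WT 5 it was 1.62 (95% interval 0.45 to 2.80). Pias3, an inhibitor of STAT3 binding to DNA, had 9.21, 8.23, 9.20, 8.90 and 8.53 in STAT3cKO 1 to 5, and 8.31, 6.93, 7.82, 7.17 and 7.5 in WT 1 to 5. STAT3cKO 1, 3, 4 and 5 lay above all WT libraries, and the change was 1.27 (SE 0.55, adjusted p = 0.41 by limma).

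**Figure D4:**
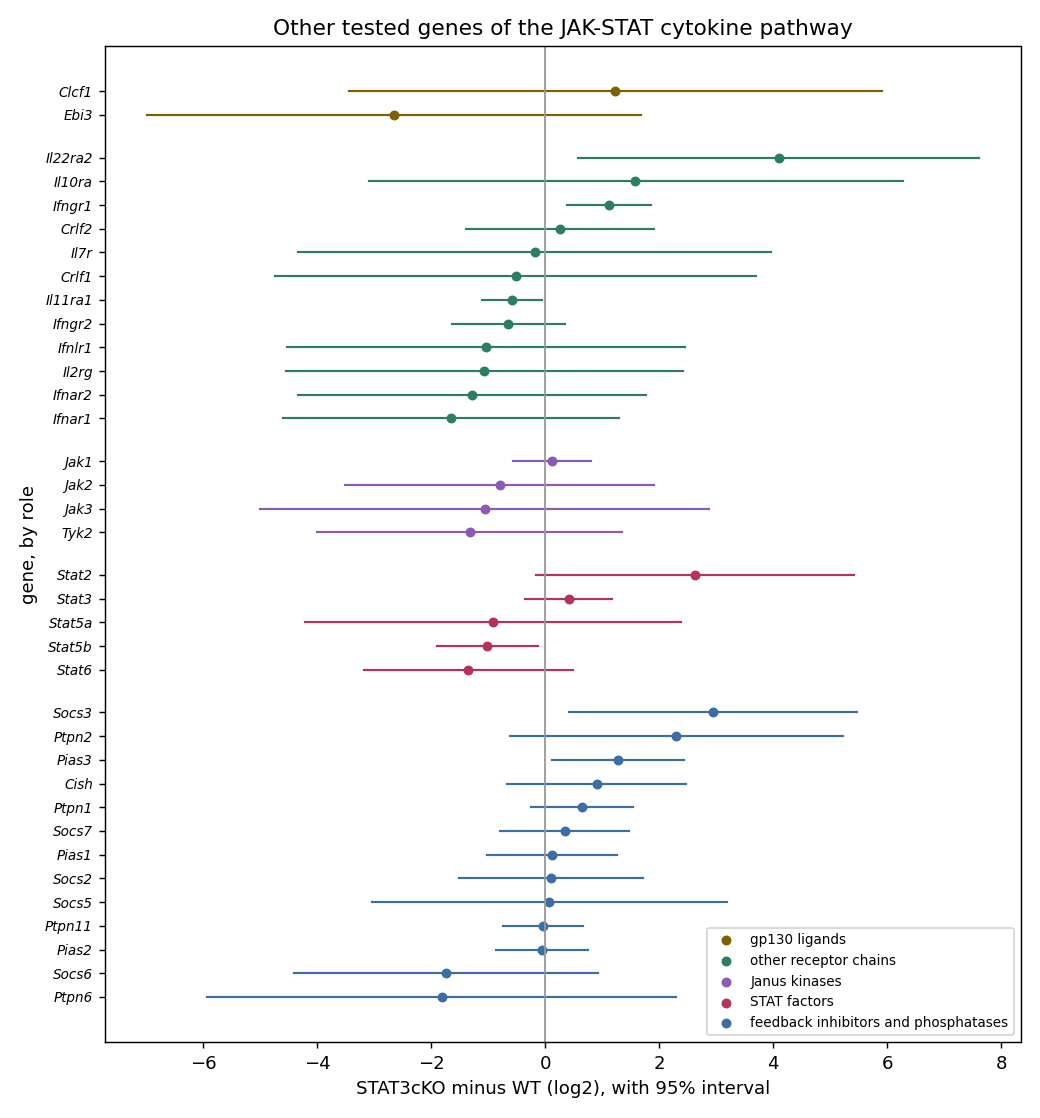
STAT3cKO minus WT (log2, x axis) for the 36 tested genes of the pathway lists other than the 10 receptor chains, coloured by role, with points for the limma estimate and lines for its 95% interval. None passed the adjusted test, and the intervals range from narrow, as for Ifngr1 (0.38 to 1.85), to wide, as for Il22ra2 (0.58 to 7.61).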

How the data were processed

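RNA was measured in 10 libraries of mouse skin, 5 STAT3cKO and 5 WT by their titles. Per the labels' protocols, RNA was taken with Trizol and sequenced with Lexogen QuantSeq. Reads were processed with Bowtie2 and bedtools on mm10, per the submitters' processing notes; the sources used here give no versions, strand use, scaling or annotation. The authors deposited 1 value per gene symbol, which behaves approximately as log2 of scaled reads plus 1. Among values of up to 20 reads, 89.8 to 100% lay within 0.15 of a whole multiple of the worth of 1 read. Genes without a read were not all at 0: in STAT3cKO 2, Lif had 0.0, Il4 0.05 and Osm 0.06. The step behind these offsets is not described, so read numbers, depths and limits are estimates. Dividing each library's linear sum (9690000 to 10700000 in STAT3cKO, 10800000 to 11400000 in WT) by that step gave the estimated depth. Duplicate reads were not told apart, so depths and limits cover counting error only.

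Genes with a value of at least 5 in at least 5 libraries (11536 of 23282 entries) were fitted with limma 3.58.1 in R 4.3.3 (group only, mean trend, robust), tested on simulated data first, and adjusted by Benjamini-Hochberg over all of them. Genes with an adjusted p under 0.05 are called; intervals are at 95%. Summed marker levels are log2 of summed linear values plus 1. Named genes are all members, Stat3, the 2 lowest p-values of each pathway list and the 2 nearest genes of each tested member. Others (Il2rg, Stat6, Il11ra1 and untested ligands) were chosen after their values were seen. Members and lists were chosen with earlier results of these data known. The STAT list is not complete, since 1 gene is not reported here. Positions come from GENCODE M21 and promoters from RefSeq. Replicate numbers did not pair libraries. Figures were drawn with matplotlib 3.10.9. Alternatives were filters, scalings, a pseudocount of 16, the variance model, a replicate block, depth classes and libraries left out.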

Additional observations from a re-analysis of the deposited data

Results flagged for a closer look

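The 10 receptor chains and the named pathway genes gave 42 group and gene combinations. In 8 of them 1 library lay far from the other 4 of its group. The rule used has a nominal rate of about 1 in 20. That rate need not hold where a library without a read falls to near 0, and the share over all tested genes is not given. The count is therefore not set against chance. Among the chains, Il4ra in STAT3cKO 2 (0.06, nearest other 8.49), Il10rb in STAT3cKO 2 (0.06, nearest 7.19) and Il22ra1 in WT 3 (0.06, nearest 7.17) stood apart. Among the other genes, Jak2 and Tyk2 had 1.29 in STAT3cKO 2 (nearest 8.05 for Jak2 and 6.96 for Tyk2), Stat2 had 0.06 in WT 3 (nearest 6.53), Ebi3 had 0.08 in WT 5 (nearest 5.68) and Socs3 had 1.36 in WT 5 (nearest 6.95). STAT3cKO 2 and WT 3, the libraries of 6 of the 8 values, had no read for 22.7% and 11% of tested genes, and WT 5 for 8.52%. The share was 9.51% in STAT3cKO 3, which held none of the flagged values. In the remaining libraries it ran from 0.719% in WT 4 to 6.43% in WT 1. The parts of library quality and of sex in these values were not tested.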

How the results depend on the processing

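No receptor chain and no pathway list gene was called in any of the 20 alternatives, and the lowest limma adjusted p of a chain was 0.061, for Il4ra without STAT3cKO 2. Il4ra stayed lower throughout (−4.29 to −1.53). The genes called over the whole table, 61 higher and 53 lower, became 13 and 31 without trend and robust estimation, 12 and 4 in the shallower libraries, 34 and 32 with the replicate block, 76 and 39 with equal library sums (a share of higher calls over 10 points greater), 85 lower with a pseudocount of 16 and 92 lower in the deeper libraries. With 1 library left out they ranged from 29 to 96 higher and from 24 to 111 lower, and moved by over 1.5 times without STAT3cKO 1 (29 higher, 32 lower), STAT3cKO 4 (37 higher), STAT3cKO 5 (34 higher), WT 1 (37 and 25), WT 2 (38 and 24), WT 3 (26 lower) and WT 4 (96 and 111). Same-numbered libraries had correlations of −0.15 to 0.02, so the block removes no known pairing; it left 0 chains called. Equal library sums moved the median of all genes by 0.11.

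Signs turned for Il6ra (−0.11 without STAT3cKO 2 and WT 3, −0.43 in the deeper libraries), Il13ra1 (0.08 with equal sums, 0.31 and 0.30 in those 2 subsets), Il10rb (0.61 and 1.55), Jak2 (0.50 and 0.41), Tyk2 (0.32 and 0.35) and Clcf1 (−0.27 without STAT3cKO 2 and WT 3, −1.43 in the shallower libraries). With 1 library left out, Lifr ranged from −0.04 to 0.40, Il13ra1 from −0.28 to 0.38, Il10rb from −1.90 to 0.47, Tyk2 from −1.93 to 0.01 and Jak2 from −1.19 to 0.57. The cause was not tested.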
